A study of Ovis aries with 7 samples.

Results

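LTF (ENSOARG00000008620) and LBP (ENSOARG00000018816), the genes of lactoferrin and of the lipopolysaccharide-binding protein, were followed in the tail adipose tissue of 7 lambs. LTF lies on chromosome 19 from 52870333 to 52903163 and LBP on chromosome 13 from 66798218 to 66835015, as the deposited tables place them. The submitters' notes name the sheep build Oar_v3.1, while the study's methods name v4.0. Every row of the 7 tables whose span overlaps 1 of these 2 positions was taken, so the members are 2 genes of 22094 loci that could be matched by position in all 7 libraries. Of these loci, 8177 had a mean FPKM of at least 1, and both LTF and LBP are among them.

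The study set 4 Zel (thin-tailed) lambs against 3 Ghezel (fat-tailed) lambs to ask how the tail fat of these Iranian sheep breeds differs. All were healthy males aged 7 months, weaned, kept in individual pens on the same diet without further treatment, and each gave 1 poly(A)-enriched library of the tail fat. Another Ghezel library was lost during preparation. Lambs are numbered as in the labels, Zel 1 to 4 and Ghezel 1 to 3.

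Lactoferrin is an iron-binding glycoprotein of milk, mucosal secretions and the secondary granules of neutrophils, and it withholds iron from bacteria and binds their surfaces. The lipopolysaccharide-binding protein is an acute-phase protein that the liver releases into plasma. It hands bacterial lipopolysaccharide to CD14 and the TLR4 receptor, and it is a relative of BPI, the bactericidal protein of neutrophils. Both proteins therefore belong to the first line of defence against bacteria.

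The values are FPKM, the fragments of a locus relative to its transcript length and to all mapped fragments, and each comes with confidence bounds set at 2 standard errors. From the FPKM and its upper bound, the fragments behind each value can be computed, here called implied fragments. The libraries held 7308100 to 7827400 of them in all, a lower bound where a locus has several isoforms. Zel 3 and Zel 4 stood apart from the other libraries on the first principal component, which held 54.4% of the variance, and Zel 3, Zel 4 and Ghezel 3 had the shortest assembled loci, with a median span of 963, 1409 and 3641 bases against 5400 to 8935 bases elsewhere. The tables carry names of 2 styles, 1 shared by Zel 2, Ghezel 1 and Ghezel 2 and the other by Zel 1, Zel 3, Zel 4 and Ghezel 3. The sources used here do not say what this naming reflects. The files do not pair IDs with names, and none of the 6 adipocyte markers, 7 neutrophil markers, 6 macrophage markers or 4 hepatocyte markers could be placed in them, so the tissue label and the share of other cells were not checked. In tissue RNA, fewer cells of a type and less RNA per cell cannot be told apart.

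LTF was abundant in 2 of the 3 Ghezel lambs and low in the other 5 animals. Across the Zel lambs, numbered 1 to 4, the FPKM was 8.61, 3.01, 1.11 and 0.494. In Ghezel 1 and Ghezel 2 it was 129 and 127, and in Ghezel 3 it was 0.345. Ghezel 3 thus had the lowest value of all 7 libraries, below every Zel lamb, and the ranges of the breeds overlapped. The lower of Ghezel 1 and Ghezel 2 was 14.8 times the highest Zel library and 369 times Ghezel 3. Among the Zel lambs themselves the highest value was 17.4 times the lowest.

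The bounds of the main LTF row were 124 to 133 in Ghezel 1 and 121 to 130 in Ghezel 2, which overlap. On the scaled FPKM used for the breed comparison, the bounds were 108 to 116 and 121 to 130 and did not overlap. From Zel 1 down to Zel 3, the bounds of 7.57 to 9.66, 2.66 to 3.37 and 0.920 to 1.30 did not overlap. Zel 4, with 0.364 to 0.625, and Ghezel 3, with 0.228 to 0.462, did overlap at the foot of the order. On scaled FPKM, their bounds were 0.394 to 0.676 and 0.188 to 0.381 and did not overlap. These bounds cover counting error within a library, not the spread between lambs. Against the tested loci of the same library, LTF lay above 92.5% of them in Ghezel 1 and 92.2% in Ghezel 2, above 18.9% to 44.9% in the Zel libraries and above 4.83% in Ghezel 3.

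LBP was also high in Ghezel 1 and Ghezel 2 alone, but with more spread between them. Its FPKM was 0.241 in Zel 1, 3.82 in Zel 2 and 0.0880 in Zel 4, and it was listed at 0 in Zel 3. In the Ghezel lambs it was 24.1, 60.5 and 0.130. Ghezel 3 lay within the range of the Zel lambs, so here too the breeds overlapped. The lower of Ghezel 1 and Ghezel 2 was 6.32 times the highest Zel library, and Ghezel 2 was 2.51 times Ghezel 1.

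The bounds of LBP were 22.1 to 26.2 in Ghezel 1, 56.7 to 64.3 in Ghezel 2 and 3.25 to 4.38 in Zel 2, all apart from each other. The low libraries could not be ordered. Zel 1 had bounds of 0.0442 to 0.437, while the upper bounds of Ghezel 3 and Zel 4 were 0.279 and 0.213 and their lower bounds 0. The values of Zel 1, Zel 4 and Ghezel 3 rest on about 6, 2 and 3 implied fragments, and a count of 0, as in Zel 3, allows up to 3 fragments. LBP lay above 73.1% of the tested loci in Ghezel 1 and above 86.2% in Ghezel 2, against 30.1% in Zel 2 and 0% to 11.3% in the other 4 libraries.

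**Figure D1:**
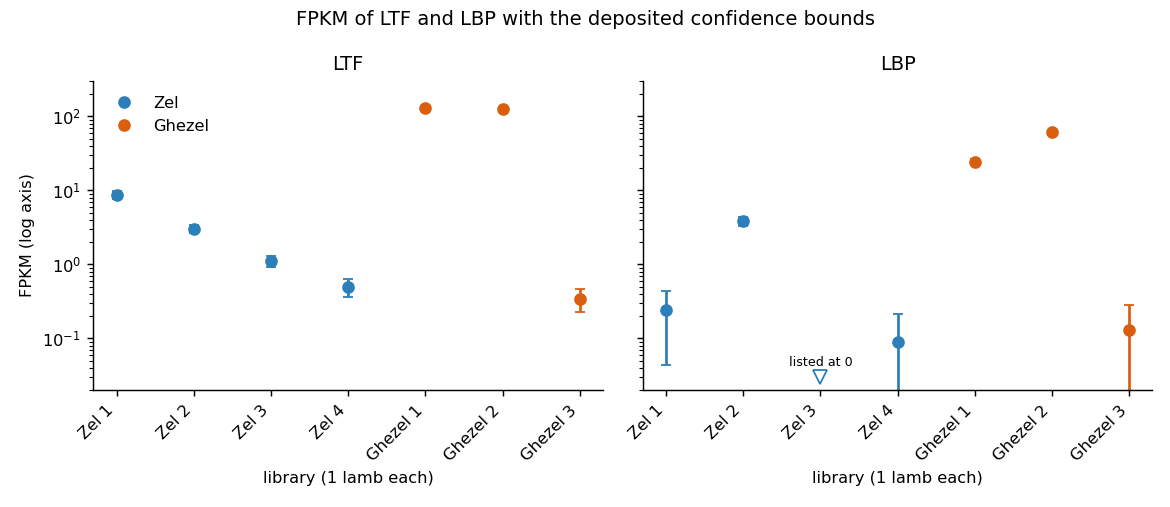
FPKM of LTF (left) and LBP (right) in each of the 7 libraries on a log axis, Zel in blue and Ghezel in orange; points are the row with the largest overlap and bars the deposited confidence bounds, cut at the foot of the axis where the lower bound is 0. The open triangle marks LBP in Zel 3, listed at 0. Ghezel 1 and Ghezel 2 lie above the other 5 libraries in both panels, and Ghezel 3 lies with the Zel lambs or below them.

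Breed means were compared on the log2(scaled FPKM + 1) scale, after each library was scaled with a size factor, the median over loci of its ratio to their geometric mean. For LTF, Zel had a mean FPKM of 3.31 ± 3.70 (SD, n = 4) and Ghezel one of 85.7 ± 73.9 (SD, n = 3). The log2 difference, Zel minus Ghezel, was -3.00 with a standard error of 1.51, and it was not called by limma (unadjusted p = 0.0798, Benjamini-Hochberg adjusted p = 0.770 over 8177 loci). An exact two-sided permutation test over the 35 splits of the lambs into 4 and 3 gave p = 0.229 for LTF, where the smallest p it allows is 0.0286. The spread within Ghezel, an SD of 3.79 on the log2 scale against 0.99 in Zel, was larger than the difference itself.

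For LBP, the log2 difference was -2.86 with a standard error of 1.27 (limma, unadjusted p = 0.0515, adjusted p = 0.770), and the exact permutation p was 0.200. Its SD was 3.01 in Ghezel and 1.07 in Zel on the same scale. A pseudocount of 1 pulls low values together. With 0.1 in its place, the log2 difference was -3.03 for LTF and -4.07 for LBP. The ratio of the breed means of scaled FPKM, chosen after the data were seen, is given beside these. On the log2 scale it was -4.76 for LTF and -4.75 for LBP. The Ghezel means in it rest mostly on Ghezel 1 and Ghezel 2. For LTF these libraries had a scaled FPKM of 113 and 128, against 0.284 in Ghezel 3. The median log2 difference of all tested loci was -0.09, and it was -0.24 without scaling and 0.01 after quantile normalization, so both members lay far below the centre of the loci under each scaling.

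A call needed an adjusted p below 0.05 with a log2 difference larger than 1.1 in size, limits taken from the study. By this rule 0 of 8177 loci were called in either direction (0% of the loci), and 0 of the 2 members. At an unadjusted limma p under 0.05, 151 loci (1.85%) were lower and 129 (1.58%) higher in Zel, and neither LTF nor LBP was among them. All 4 Zel libraries lay below all 3 Ghezel libraries at 219 loci (2.68%), again without LTF and LBP. The study listed LTF and LBP as differing on these same lambs, so their direction here is not independent evidence.

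Of the single libraries, Ghezel 3 moved the breed difference most. Without it, the log2 difference was -5.19 with a standard error of 0.72 for LTF and -4.55 with a standard error of 0.82 for LBP, and the limma adjusted p was 0.103 and 0.294. The exact permutation p was then 0.0667 for each gene, the smallest that 4 lambs against 2 allow. Without Ghezel 2, the differences were -1.87 and -1.65. Leaving out any single Zel lamb gave -3.41 to -2.63 for LTF and -3.39 to -2.64 for LBP.

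Within the tables of 1 naming style, the picture depended on which style was read. Among Zel 2, Ghezel 1 and Ghezel 2, the log2 difference was -4.93 for LTF and -2.95 for LBP, with 1 Zel library and no test. Among Zel 1, Zel 3, Zel 4 and Ghezel 3, it was 1.28 for LTF, higher in Zel, and -0.02 for LBP. With a term for the naming in the fit, the differences were -1.64 for LTF and -1.40 for LBP, and the limma adjusted p was 0.999 for both. The high values thus occur only in tables of the first style, which holds 2 of the 3 Ghezel libraries, and breed and naming can be told apart only in part.

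The 2 high libraries were then set against all loci. Ghezel 1 and Ghezel 2 both lay above the other 5 libraries at 1012 of 8177 tested loci (12.4%), and they did so by more than 2 on the log2 scale at 20 loci (0.245%). LTF and LBP are among these 20. The gap between the lower of Ghezel 1 and Ghezel 2 and the highest of the other 5 libraries was 3.87 for LTF, place 8 of all tested loci, and 2.21 for LBP, place 15. These counts were chosen after the values were seen and carry no test.

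The number of fragments behind LTF gave the same split with other ratios. Zel 1 to Zel 4 had about 272, 294, 138 and 57.3 implied fragments, Ghezel 1 and Ghezel 2 had 3412 and 3305, and Ghezel 3 had 34.7. Ghezel 1 and Ghezel 2 together held 89.4% of all LTF fragments. In Zel 2, Zel 3, Zel 4 and Ghezel 3 the value stands in a row with the reference ID, where 1 FPKM corresponded to 97.7 to 125 fragments. In Zel 1, Ghezel 1 and Ghezel 2 it stands in a row assembled from the reads, where 1 FPKM corresponded to 26.0 to 31.6 fragments. For LTF, a library with an assembled row therefore has a higher FPKM for the same number of implied fragments. Implied fragments are a lower bound where a locus has several isoforms. Whether the FPKM or the number of fragments is off in assembled rows was not tested, and the shares and ratios by fragments carry this limit.

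Per 1000000 implied fragments of the library, LTF had 34.8, 40.3, 18.0 and 7.34 in the Zel lambs in order of number and 460, 441 and 4.45 in the Ghezel lambs. Zel 2 now lay above Zel 1, whose FPKM was higher, but the bounds of 11.7% and 12.1% around their values overlap on this scale. The lower of Ghezel 1 and Ghezel 2 was 10.9 times the highest Zel library and 99.2 times Ghezel 3 on this scale, in place of 14.8 and 369 times by FPKM. The log2 difference between the breeds was -2.24 with a standard error of 1.56 (limma, adjusted p = 0.743).

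For LBP, 1 FPKM corresponded to 17.0 to 24.9 fragments in Zel 1, Zel 4 and the Ghezel libraries, and to 47.5 in Zel 2. The implied fragments were about 6, 181, 0 and 2 in the Zel lambs in order of number and 550, 1027 and 3 in the Ghezel lambs. Per 1000000 fragments, LBP had 24.8 in Zel 2, 74.2 in Ghezel 1 and 137 in Ghezel 2, and below 1 in the other 4 libraries. Ghezel 1 was thus 2.99 times Zel 2 by fragments and 6.32 times by FPKM. Ghezel 1 and Ghezel 2 held 89.1% of all LBP fragments. By FPKM and by fragments, LBP was higher in Zel 2, Ghezel 1 and Ghezel 2, the tables of 1 naming style, than in the other 4 libraries. On scaled FPKM, 582 of the tested loci (7.12%) shared this order. With every row within 2000 bases of the gene, Zel 3 reached 2.32 on log2(scaled FPKM + 1) against 2.26 in Zel 2. The order then held by unscaled FPKM and by fragments, but not by scaled FPKM. For LTF, Zel 1 broke the order by naming style on the FPKM scale. By implied fragments LTF followed that order, but Zel 2 and Zel 1 could not be ranked there. They had 294 and 272 fragments, with overlapping bounds of 11.7% and 12.1% around the value, from a reference row and an assembled row.

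**Figure D2:**
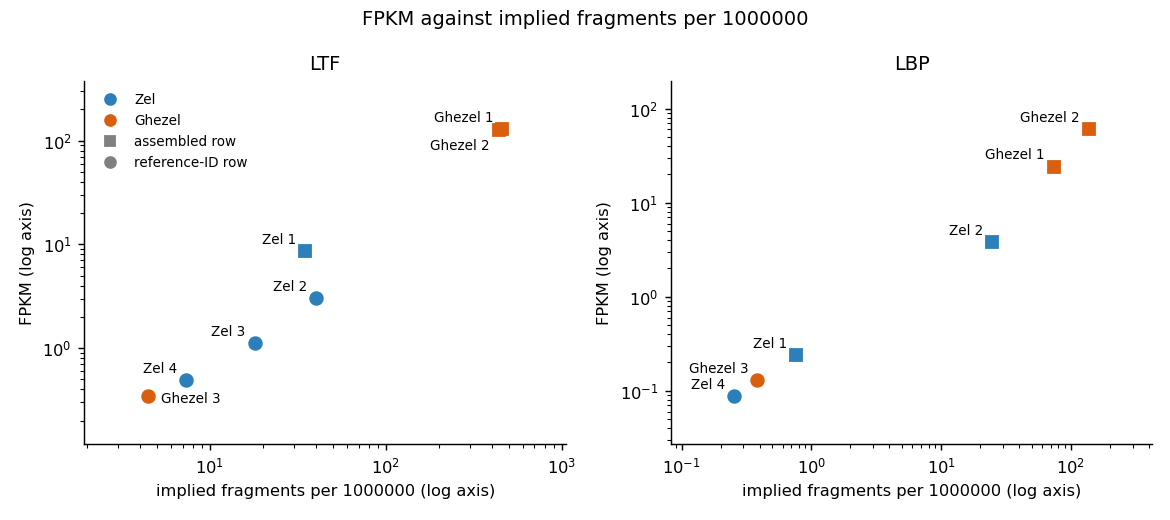
FPKM against implied fragments per 1000000 for LTF (left) and LBP (right), both axes on a log scale, 1 point per library, with squares for assembled rows and circles for rows with the reference ID; LBP in Zel 3, at 0, is not drawn. For LTF, Zel 1 lies above Zel 2 on the FPKM axis and to its left on the fragment axis, and Ghezel 1 and Ghezel 2 lie at 460 and 441 on the fragment axis.

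The rows themselves also differed in extent. In Zel 1, Ghezel 1 and Ghezel 2 the main LTF row spanned 32887, 33838 and 34065 bases against 32831 bases of the reference gene. In Ghezel 1 and Ghezel 2 alone, a further row overlapped the low-coordinate end of LTF, from 52858038 to 52871352 with an FPKM of 1.28 and from 52858497 to 52871403 with an FPKM of 2.07. These rows are included in the LTF values above and add little to them. In the RefSeq annotation of another sheep assembly, used for names and order only, 2 long noncoding RNAs overlap LTF. Whether the extra rows correspond to either was not tested.

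At the high-coordinate end of LBP, the LBP row of Zel 2 ran on to 66836191. In Zel 3 and Zel 4, separate short rows lay just beyond the gene, from 66835593 to 66836196 with an FPKM of 2.85 and from 66835683 to 66836246 with an FPKM of 1.81. They fall outside the rule. Taking every row within 2000 bases of the gene, a choice made after the data were seen, brought Zel 3 to 2.85 and Zel 4 to 1.90 by FPKM and left the other libraries as they were. The LBP difference was then -1.91 with a standard error of 1.25 (limma, adjusted p = 0.770).

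The ratio of LTF to LBP varied widely between libraries. The FPKM of LTF was 5.36 times that of LBP in Ghezel 1, 2.1 times in Ghezel 2 and 2.66 times in Ghezel 3. It was 35.8 times in Zel 1, 0.790 times in Zel 2 and 5.62 times in Zel 4. Zel 2 was the only library with more LBP than LTF by FPKM, and Zel 1, the Zel lamb with the most LTF by FPKM, had about 6 fragments of LBP. By implied fragments, LTF had 45.4, 1.62 and 28.7 times as many as LBP in Zel 1, Zel 2 and Zel 4, and 6.20, 3.22 and 11.6 times as many in Ghezel 1 to Ghezel 3, so LTF exceeded LBP in each of these libraries. Outside Ghezel 1 and Ghezel 2, Zel 2 was highest and Zel 1 next in both genes on this scale. For LTF these 2 lay within counting error of each other, and the LBP of Zel 1 and of the libraries below it rested on 6 fragments or fewer. Because Ghezel 1 and Ghezel 2 form a cluster of their own and only 5 libraries are left outside it, the relation between the 2 genes was not tested and no pooled correlation between them is reported.

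**Figure D3:**
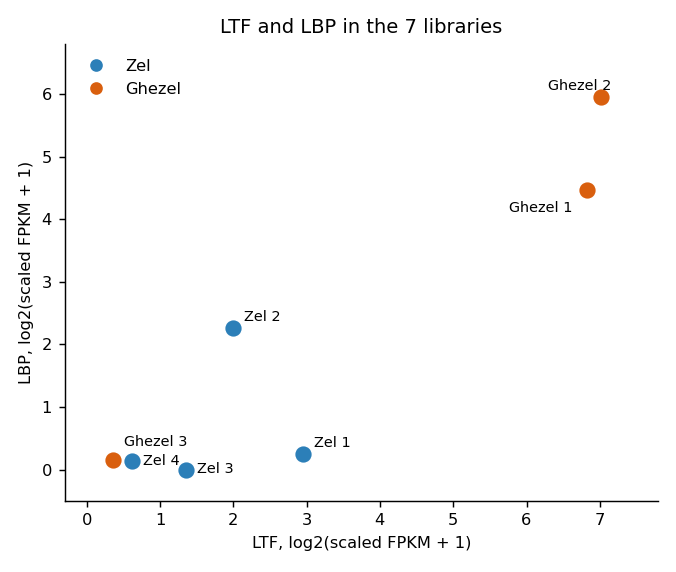
LBP against LTF, both as log2(scaled FPKM + 1), 1 point per library, Zel in blue and Ghezel in orange. Ghezel 1 and Ghezel 2 stand alone at the upper right, with 6.83 and 7.01 for LTF and 4.46 and 5.95 for LBP, and the other 5 libraries lie at 2.96 or less on both axes, Zel 1 to the right and Zel 2 above.

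The nearest reference genes on each side are given beside the members. On the low-coordinate side of LTF, the gene at 52846715 to 52849274, 21058 bases away, was listed at 0 in 6 libraries. In Ghezel 2 it stood at 0.142, on about 2 implied fragments, so it was too low to compare with LTF. On the high-coordinate side, the gene at 52912035 to 52913081, 8871 bases away, stood at an FPKM of 4.11, 1.80, 1.00 and 1.49 in the Zel lambs in order of number and of 1.99, 1.71 and 4.46 in the Ghezel lambs. Its highest value was in Ghezel 3, where LTF was lowest, and its log2 difference between the breeds was -0.16 (exact permutation test, p = 0.514). In RefSeq, the coding genes beside LTF are RTP3, a receptor-transporting protein, and CCRL2, a chemokine-binding receptor, but the files do not pair these names with the IDs.

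On the low-coordinate side of LBP, the gene at 66754362 to 66785791, 12426 bases away, had an FPKM of 0.25, 1.06, 0 and 0.186 in Zel 1 to Zel 4. In Ghezel 1 to Ghezel 3 it was 4.95, 4.47 and 1.41. All 3 Ghezel lambs lay above all 4 Zel lambs, as at 2.68% of all tested loci. The log2 difference was -1.60 with a standard error of 0.50, an exact permutation p of 0.0286, the smallest possible, and a limma adjusted p of 0.770. Like LBP, it was highest in Ghezel 1 and Ghezel 2 and, within Zel, in Zel 2, but Ghezel 3 held 1.41 where LBP was at 0.130. RefSeq places BPI on this side of LBP, and the files do not pair that name with this ID.

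On the high-coordinate side of LBP, the nearest gene lay at 66879087 to 66906063, 44071 bases away. Its FPKM was 3.14, 0.230, 0 and 0.0231 in the Zel lambs in order of number and 1.58, 0.0815 and 2.16 in the Ghezel lambs. It was low in Ghezel 2, where LBP was highest, and high in Zel 1, where LBP rested on about 6 fragments. Its log2 difference was -0.41 (exact permutation test, p = 0.514).

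**Figure D4:**
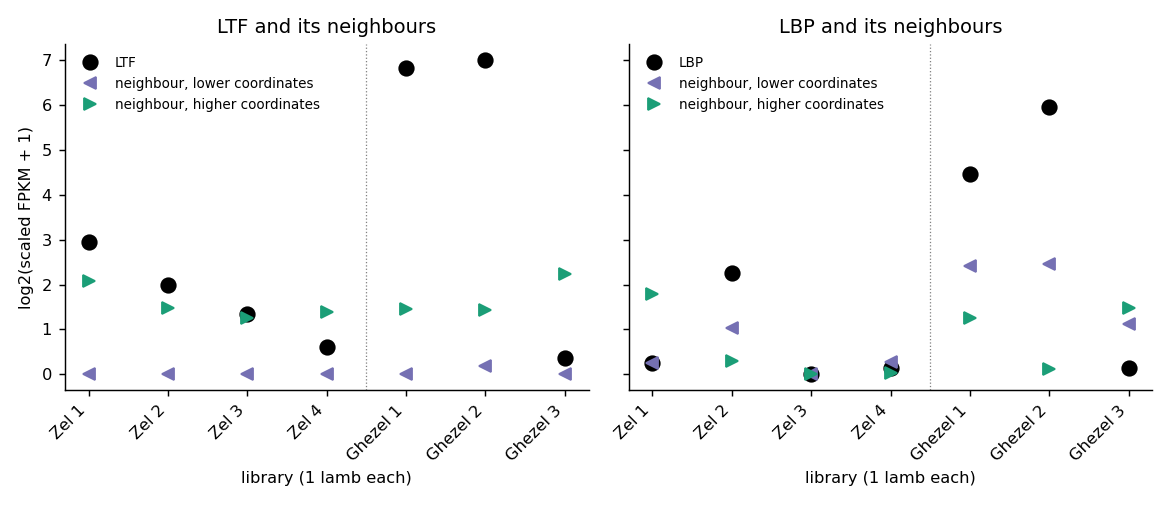
Level of LTF (left) and LBP (right) and of the nearest reference gene on each side, as log2(scaled FPKM + 1), in the 4 Zel libraries left and the 3 Ghezel libraries right of the dotted line. LTF stands above both neighbours in Ghezel 1 and Ghezel 2, and by less in Zel 1, Zel 2 and Zel 3. The neighbour of LBP on the low-coordinate side is higher in all 3 Ghezel libraries than in all 4 Zel libraries.

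Loci of a similar pattern over the 7 libraries were ranked by Pearson's r of log2(scaled FPKM + 1), as a description that rests mainly on Ghezel 1 and Ghezel 2. The closest to LTF, with r = 0.987, was an assembled locus on chromosome 5 from 43012703 to 43025362, with an FPKM of 92.1 and 85.4 in Ghezel 1 and Ghezel 2 and of 14.0 to 35.0 elsewhere. The second, with r = 0.985, lay on chromosome 3 from 207275702 to 207285576, with 10.4 and 9.37 in these lambs and 0 to 2.45 elsewhere. The closest to LBP, with r = 0.992, lay on chromosome 22 from 31836040 to 31898468, and the second, with r = 0.989, on chromosome 1 from 116245674 to 116338885. At the latter, Zel 2 had 8.90, above the other 3 Zel lambs at 0.491 to 3.44, and Ghezel 1 and Ghezel 2 had 109 and 158. In all, 146 loci (1.79%) reached an r of 0.9 with LTF and 106 (1.30%) with LBP.

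Of 83 gene symbols listed for antimicrobial and granule proteins, lipopolysaccharide sensing, the acute phase, iron handling and cell type markers, only SAA1 and SOCS3 could be placed, both among the 15 acute-phase genes and both listed by the study on these lambs. SAA1 encodes serum amyloid A, an acute-phase protein, and stood at an FPKM of 16.3, 1302, 8.19 and 41.5 in Zel and of 67.9, 1.55 and 3.56 in Ghezel. In Zel 2, Zel 4 and Ghezel 1 its rows belong to assembled loci of 44348 to 71388 bases, which hold more than the gene of 6472 bases. SOCS3, a feedback inhibitor of cytokine signalling, had 49.6, 104, 59.0 and 0.440 in Zel and 6.74, 6.39 and 7.35 in Ghezel. The value of Zel 4 stands in the reference row of 690 bases, with about 2 fragments, and those of the other 6 libraries in assembled rows of 2322 to 2995 bases. Without Zel 4, a choice made after the data were seen, the log2 difference of SOCS3 was 3.30, higher in Zel, in place of 1.91 (exact permutation test, p = 0.1, the smallest that 3 lambs against 3 allow). Neither gene was highest in Ghezel 1 and Ghezel 2 together, and with all 7 libraries the exact permutation p was 0.286 for SAA1 and 0.229 for SOCS3. Each value is that of the row with the largest overlap, not a sum as for LTF and LBP. A further SAA1 row in Zel 2 and in Zel 4 was left out. Both tests thus compare rows of unlike extent.

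**Figure D5:**
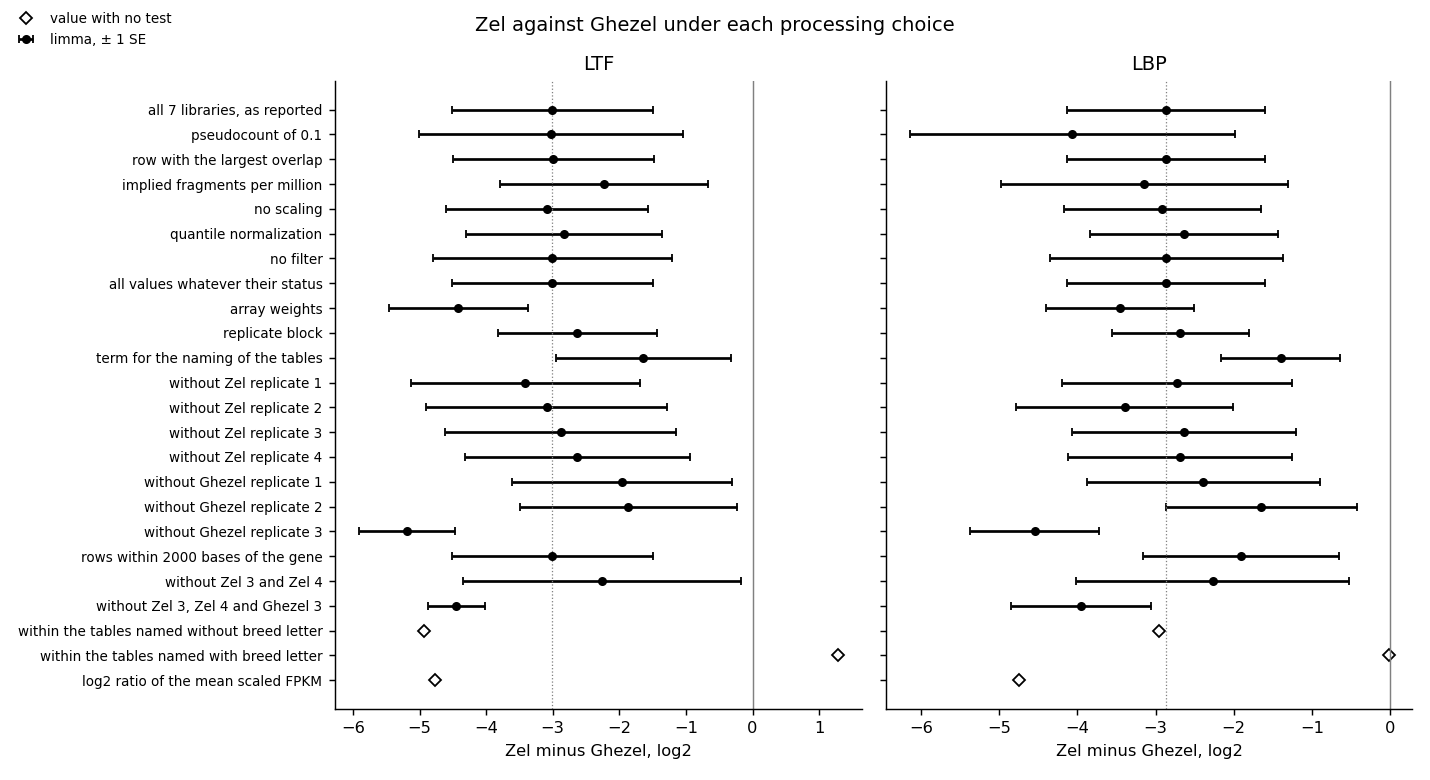
Log2 difference, Zel minus Ghezel, of LTF (left) and LBP (right) under each processing choice, with limma estimates and bars of 1 standard error as filled points and values with no test as open diamonds; the dotted line is the value reported for all 7 libraries and the grey line 0. LTF crosses 0, at 1.28, only within the tables named with a breed letter, those of Zel 1, Zel 3, Zel 4 and Ghezel 3, where LBP is at -0.02.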

How the data were processed

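Tail adipose tissue RNA of 4 Zel and 3 Ghezel lambs was analysed from the gene tables that the authors deposited, 1 per library. Per the study's methods, reads were trimmed, mapped to the sheep genome and assembled with Cufflinks. The submitters' processing notes name FastQC, TopHat, Cuffdiff and Oar_v3.1. The authors deposited FPKM with confidence bounds for each locus, and the values are normalized for library size and transcript length. Assembly ran in each library separately, so the extent of a locus, and the FPKM with it, can differ between libraries.

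Rows overlapping LTF or LBP were summed. Implied fragments are the square of 2 times the FPKM over the distance to the upper bound. Loci were matched by position, with a reciprocal best overlap covering 0.8 or more of the longer span in every library. Values were scaled with median ratios over 6801 loci, and the 8177 loci at a mean FPKM of 1 or more were fitted with limma 3.58.1 (trend) in R 4.3.3 on log2(scaled FPKM + 1). The fit was run on simulated data with independent normal values and the same spread in both breeds. That setting differs from the unequal spreads of LTF and LBP and from the clusters of libraries, so it does not test the fit for them. Single values were compared with exact permutation tests. The lambs are separate animals, and the permutation p-values compare these lambs alone. The limma fit assumes 1 spread for both breeds and draws it toward the trend over all loci. On the log2 scale, the SD of LTF was 3.79 in Ghezel and 0.99 in Zel, and that of LBP 3.01 and 1.07. The limma standard errors and unadjusted p-values of both genes do not allow for this inequality.

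Zel and Ghezel share the replicate numbers 1 to 3. The numbers were taken as pairs in 1 alternative. After the breed means were subtracted, same-numbered libraries had correlations of 0.267, 0.148 and 0.307 across loci. Other pairs also correlated, with 0.305 for Zel 2 and Ghezel 1 and 0.269 for Zel 4 and Ghezel 3. These values thus do not single out the same-numbered libraries, and the labels and the methods give no common litter or day for a number.

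The named genes were LTF, LBP, the nearest reference gene on each side, the loci of the most similar pattern, and genes of fixed lists that a source places by ID. The members and lists were chosen with earlier results of these data known. The alternatives were a pseudocount of 0.1, the row with the largest overlap, implied fragments, no scaling, quantile normalization, no filter, all values whatever their status, array weights, the block, table naming and each library left out. A window of 2000 bases, the ratio of means and leaving out several libraries, or Zel 4 for SOCS3, were chosen after the data were seen. RefSeq gene names and order come from ARS-UI_Ramb_v3.0. Sequences and promoter motifs were not analysed here.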

Additional observations from a re-analysis of the deposited data

Results flagged for a closer look

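LBP in Zel 2 stood far from the other Zel lambs, with a log2(scaled FPKM + 1) of 2.26, and the distance to the nearest of the other 3 was 0.889 of the whole range, beyond Dixon's 95% limit for 4 samples. With the rows within 2000 bases of the gene, Zel 3 reached 2.32 and Zel 4 1.61, and no Zel lamb stood apart. LTF in Zel showed no such library. Among the neighbours and listed genes, the gene on the high-coordinate side of LBP stood out in Zel 1, with a value of 1.79 and a distance of 0.836 of the range. For normally distributed values, chance gives about 1 such library in 20 groups, and 7 groups of 4 Zel libraries were examined. LBP rested on about 6, 0 and 2 implied fragments in Zel 1, Zel 3 and Zel 4. The gene on its high-coordinate side had about 8.37, 0 and 1 in Zel 2, Zel 3 and Zel 4. With values this near 0, that rate need not hold.

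Signal just outside LBP appeared in 2 libraries. The row beyond its high-coordinate end held about 18.9 implied fragments in Zel 3, where LBP is listed at 0, and about 11 in Zel 4, where LBP has about 2. Both exceed the 3 fragments that a count of 0 allows. Whether these fragments belong to LBP was not tested.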

How the results depend on the processing

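For each of LTF and LBP, 22 of 23 alternatives kept the sign and the side of the threshold or, where untested, moved the value by less than the spread between lambs. The exceptions were the tables named with a breed letter, where LTF was 1.28, higher in Zel, and LBP -0.0197. What the naming reflects was not tested. Neither gene was called with all 7 libraries, so keeping that side of the threshold asks little. Some alternatives also gave equal values, as the replicate block and leaving out Zel 4 did. The differences counted as kept ran from -5.19 to -1.64 for LTF and from -4.75 to -1.40 for LBP. The limma adjusted p ranged from 0.103 to 1 for LTF and from 0.25 to 1 for LBP over 20 fits each, so no fit called either gene. Leaving out each library gave -5.19 to -1.87 for LTF and -4.55 to -1.65 for LBP, in each case largest without Ghezel 3 and smallest without Ghezel 2. Without Zel 3 and Zel 4 the differences were -2.26 and -2.27, and without Ghezel 3 as well -4.45 and -3.95.

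In the fit with a replicate block, where Zel 4 has no partner, LTF was -2.63 and LBP -2.68, 0 loci were called, and no call changed. The count of called loci, 0 with all 7 libraries, was 1 with array weights, 0 to 9 when each library was left out (9 without Ghezel 3, 2 of them higher in Zel and 7 lower), 1 without Zel 3 and Zel 4, and 4 without Zel 3, Zel 4 and Ghezel 3. LTF and LBP were not among them. The test of LTF against LBP and its alternatives were not run, since the libraries form clusters. Depth limits LBP in Zel 1, Zel 3, Zel 4 and Ghezel 3, where it has 0 to about 6 fragments.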
